A study of Mus musculus with 8 samples.

Results

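The collagen chain genes of the fetal mouse heart were taken as every gene symbol made of Col, a type number, the letter a and a chain number, with nothing after it. The rule uses names only and no expression value. It gave 42 genes among the 26590 gene symbols of the deposited table, on 89 of its 51414 rows, each row being 1 transcript. A gene with several rows was represented by its most abundant one, averaged over the genotypes. Of the 42 genes, 29 had a mean above 1 RPKM (a read density scaled by transcript length and by the number of mapped reads) in at least 1 genotype and were tested, and 13 did not.

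The hearts of 4 *Dio3+/+* and 4 *Dio3-/-* fetuses, titled E13.5 and of the C57BL/6J strain, were profiled by sequencing of total RNA. *Dio3* encodes the type 3 deiodinase, the enzyme that inactivates thyroid hormones, and the *Dio3-/-* fetuses lack it in every tissue. The question behind the comparison was what a developmental excess of thyroid hormone does to the heart. Each RNA sample came from 1 fetus. The table gives the authors' mean and coefficient of variation (CV, the SD divided by the mean) over the 4 hearts of each genotype, and it holds no values of single hearts, so which heart was high or low cannot be stated.

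The labels disagree on some points that touch every value here. The age field gives E18.5 for 2 of the 4 *Dio3-/-* hearts, against E13.5 in the title of all 8, and the study's methods name another gestational day than its results text. The series text calls the fetuses male, yet *Xist* averaged 35.6 and 40.0 RPKM in the *Dio3+/+* and *Dio3-/-* groups beside Y-linked transcripts such as *Eif2s3y* at 9.38 and 7.29 RPKM. The targeted gene was listed at 0.35 RPKM (CV 1.23) for *Dio3+/+* and 0.13 RPKM (CV 0.76) for *Dio3-/-* hearts, both low, so its own level did not separate the genotypes. *Klf9*, a gene known to respond to thyroid hormone, had a mean of 1.86 RPKM (CV 0.14) against 8.48 RPKM (CV 0.07). Age and genotype cannot be told apart for the hearts with the later age field. Over the *Dio3-/-* hearts the CVs of the tested collagen chain genes lay between 0.01 and 0.15, and those of 8 liver markers between 0.68 and 1.26.

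Collagens are extracellular proteins built of chains wound into helical trimers. Fibrillar collagens form the cables that give valves and connective tissue their strength, and fibril-associated collagens decorate those cables. Type IV chains assemble into the sheet of the basement membrane that lies under endothelium and epicardium and around each muscle cell. In the fetal heart, fibrillar collagens come mainly from the mesenchyme of the cushions and valves and from fibroblasts, and type IV collagen from endothelial and muscle cells.

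Of the 29 genes tested, 2 rose in *Dio3-/-* hearts, and both encode the common chains of the basement membrane: *Col4a1* and *Col4a2*. None of the 29 passed limma's test as lower at an adjusted p under 0.05, although 23 (79.3%) had lower means, against 36.1% of all genes tested. Over all genes tested, 1.91% passed as higher and 0.382% as lower. *Col4a1* went from 93.8 RPKM (CV 0.08) to 123 RPKM (CV 0.06), and *Col4a2* from 65.5 RPKM (CV 0.06) to 94.8 RPKM (CV 0.05). On the log2(RPKM + 0.5) scale the other 27 genes lay between -0.87 for *Col2a1*, the chain of cartilage fibrils, and 0.14 for *Col18a1*; without the added 0.5, *Col25a1* at -1.09 was the lower end. Among all 29, the difference of the means was within the *Dio3+/+* SD in 25, of which 17 had a *Dio3+/+* CV above 0.3.

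Both genes that rose lie head to head, and the stretch that holds both starts is shown because the same bases are read out in opposite directions. In RefSeq annotation of GRCm38.p6, *Col4a2* starts on the plus strand and *Col4a1* on the minus strand, and their first exons overlap by 22 bases at chr8:11312805-11312826. The plus strand of these bases, with the GC box GGGCGG in capitals, reads as follows.
Col4a2 and Col4a1 start: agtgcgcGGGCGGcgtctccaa
The first base printed is the start of *Col4a2*, and the last base is opposite the start of *Col4a1*. The build used for the deposited values is not given in the sources used here, and neither is the strand setting of the counting, so reads within this short overlap cannot be assigned to either gene.

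The promoter windows of all RefSeq genes, 250 bases before the start and 50 after it, were searched on both strands for short motifs spelled out here. A window was found for 34 of the 42 genes, with 37 windows in all because some genes have several. The GC box GGGCGG was in 22 of the 37 (59.5%), against 35.7% of all 32851 windows, and in both the *Col4a1* and the *Col4a2* window. These 2 windows overlap by 78 bases, so the GC box printed above lies in both and is counted in each. The CCAAT box CCAAT was in 13 of the 37 (35.1%), against 37.4% of all, and again in both type IV windows. The TATA box TATAAA was in 5 of the 37, against 13.6% of all, and the AGGTCA motif, the core hexamer of many nuclear receptor sites, in 7 (18.9%), against 16.3% of all. Neither TATAAA nor AGGTCA was in the *Col4a1* or *Col4a2* window, which says nothing about a factor acting elsewhere. The *Col4a1* and *Col4a2* windows held 74.0% and 73.7% G and C, against a median of 52.7% over all windows.

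The *Dio3+/+* means of the 29 genes ranged from 1.03 to 211 RPKM. The most abundant were the chains of the interstitial fibrils, *Col3a1*, *Col1a1* and *Col1a2*, followed by *Col4a1*, *Col4a2* and *Col18a1*. RPKM values are scaled by transcript length, so levels can be set beside each other between genes.

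**Figure D1:**
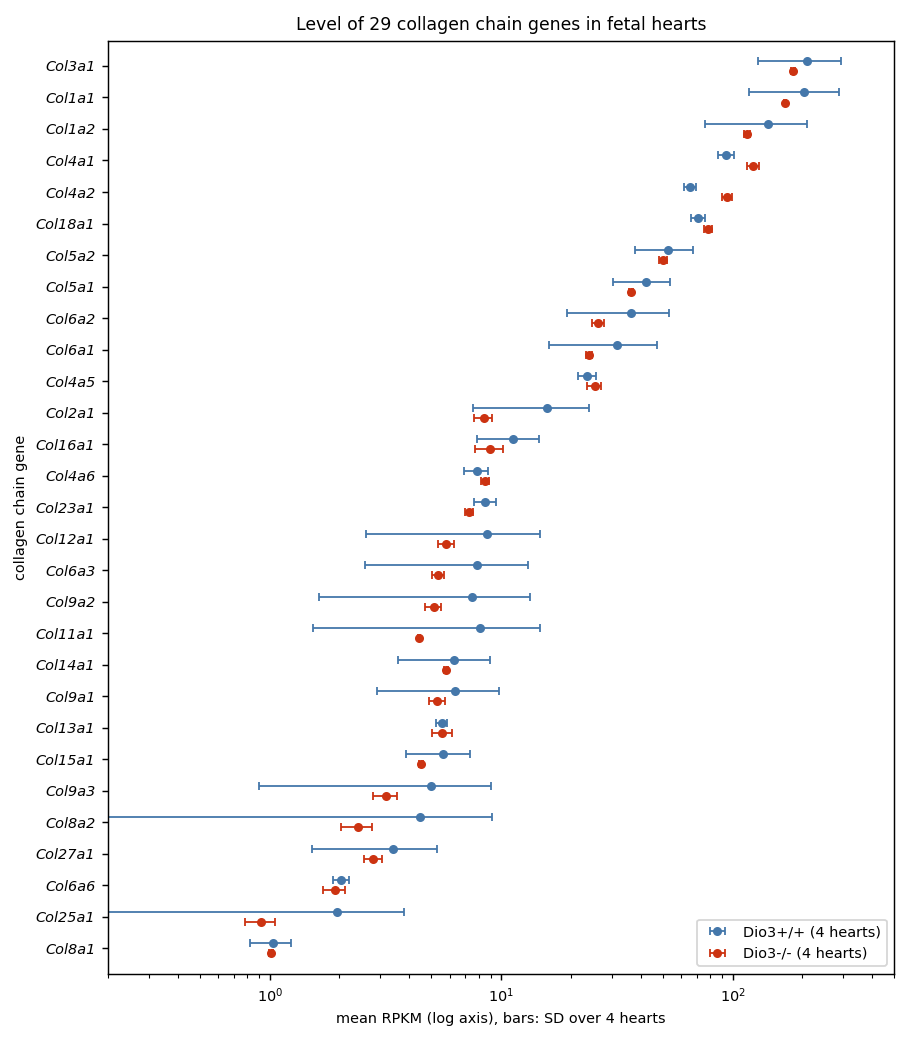
Mean level in RPKM, on a log axis, of each of the 29 collagen chain genes tested. Points are the authors' genotype means and bars are the SD over 4 hearts, taken as the mean times the deposited CV; lower bars that would pass below 0.2 RPKM end at the axis. Col4a1 and Col4a2 have short bars that do not meet, while the Dio3-/- means of the fibrillar chains lie within the long Dio3+/+ bars.

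*Col4a1* and *Col4a2* make the trimer found in nearly all basement membranes. The difference of the means was 28.9 RPKM for *Col4a1*, against SDs of 7.50 and 7.36 RPKM over the *Dio3+/+* and the *Dio3-/-* hearts. The log2 fold change was 0.39 (SE 0.07, 95% confidence interval 0.23 to 0.54), with an adjusted p of 0.0233 by limma's moderated test. For *Col4a2* the difference was 29.4 RPKM, against SDs of 3.93 and 4.74 RPKM, and the log2 fold change was 0.53 (SE 0.06, 95% confidence interval 0.40 to 0.66), with an adjusted p of 0.0026. Both lay below a 1.5-fold ratio of the means, at 1.31-fold and 1.45-fold. A ratio of *Col4a1* to *Col4a2* of 1.43 in *Dio3+/+* hearts became 1.29 in *Dio3-/-* hearts, and whether both genes changed unequally was not tested, since how they vary together within a heart is not in the table. *Col4a1* had 2 rows above the level filter and *Col4a2* had 1, and all 3 rows passed. Over all 14657 gene symbols tested by the same rule, 1.91% passed as higher and 0.382% as lower, so that 2 of 29 collagen genes (6.90%) stand beside that background for higher genes and 0 of 29 for lower genes. At an unadjusted p under 0.05 in limma's fit the counts were 3 higher and 2 lower of 29. Over all 14657 genes tested they were 2229 higher and 654 lower. By Welch's test on the same summaries, 1 passed as higher after adjustment, *Col4a2*, and none as lower, with an adjusted p of 0.129 for *Col4a1*. The study's own list of differentially expressed genes, made with Welch's test at q under 0.05, holds *Col4a1* and *Col4a2*. The study's methods also name a fold change above 1.5, which neither gene reached, and a figure legend gives the cutoff as P under 0.05. In whole hearts, fewer cells of a type and less RNA per cell cannot be told apart, and the same holds for more cells and more RNA.

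*Col4a5* and *Col4a6*, the X-linked chains of a second basement membrane trimer, form another head-to-head pair, with starts 1343 bases apart. Their means were 23.6 (CV 0.09) and 25.3 RPKM (CV 0.07) for *Col4a5*, and 7.84 (CV 0.12) and 8.49 RPKM (CV 0.04) for *Col4a6*, in *Dio3+/+* and *Dio3-/-* hearts. These differences were smaller than the spread among *Dio3+/+* hearts. The log2 fold changes were 0.10 (95% confidence interval -0.06 to 0.27) and 0.11 (95% confidence interval -0.07 to 0.29), with adjusted p values of 0.502 and 0.519 by limma. Both intervals end below the lower bound of *Col4a2*, and both overlap the interval of *Col4a1*; the difference between the pairs was not tested. *Col4a3* and *Col4a4*, the chains of the kidney and inner ear basement membranes, were listed at 0.19 and 0.25 RPKM in *Dio3+/+* hearts and at 0.26 and 0.43 RPKM in *Dio3-/-* hearts, under the filter. The 6 type IV genes summed to 191 RPKM in *Dio3+/+* hearts and to 252 RPKM in *Dio3-/-* hearts, or 17.5% and 24.9% of the summed level of all 42 collagen genes. No error can be given for sums, for the same reason as for ratios.

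**Figure D2:**
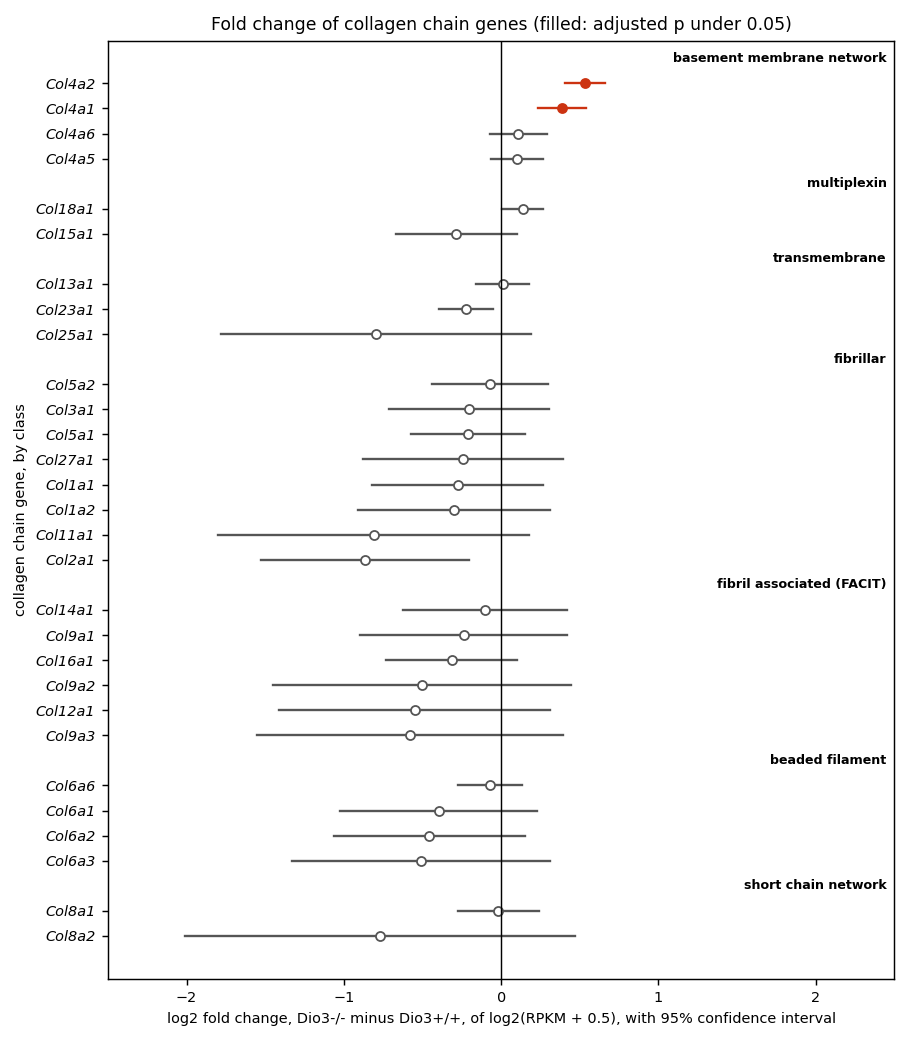
Log2 fold change of each tested collagen chain gene, Dio3-/- minus Dio3+/+, on the log2(RPKM + 0.5) scale, with its 95% confidence interval from limma, grouped by class. Filled points have an adjusted p under 0.05, which holds for Col4a1 and Col4a2; the intervals of the fibrillar, fibril-associated and beaded filament chains are wide.

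Multiplexins are the collagens of basement membrane zones that carry sugar chains, and the C-terminal piece of the type XVIII chain is endostatin, an inhibitor of vessel growth. *Col18a1* had means of 71.1 (CV 0.07) and 78.2 RPKM (CV 0.04), with a log2 fold change of 0.14 (95% confidence interval 0.01 to 0.27). It did not pass after adjustment (adjusted p = 0.240 by limma). *Col15a1*, the other multiplexin, had means of 5.60 (CV 0.31) and 4.51 RPKM (CV 0.02), with a log2 fold change of -0.28 and an adjusted p of 0.417 by limma. Apart from the 4 type IV genes and *Col18a1*, the 1 tested gene with a higher mean was *Col13a1*, a transmembrane collagen of cell contacts, whose means of 5.53 and 5.57 RPKM differed by less than the spread within either genotype. Centring the log2 ratios on their median turned that difference to -0.03.

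All 8 tested fibrillar genes had lower means in *Dio3-/-* hearts, and none passed the test. *Col1a1* had a mean of 204 RPKM with a CV of 0.42 over the *Dio3+/+* hearts and 168 RPKM with a CV of 0.01 over the *Dio3-/-* hearts. Its partner *Col1a2* had 143 RPKM (CV 0.47) and 116 RPKM (CV 0.03). *Col3a1*, which joins type I in the fibrils of elastic tissues, had 211 RPKM (CV 0.39) and 183 RPKM (CV 0.02). In each of these genes the *Dio3-/-* hearts lay close together and the *Dio3+/+* hearts far apart, with a *Dio3+/+* SD of 85.7, 67.1 and 82.1 RPKM against differences of the means of -35.6, -27.0 and -28.0 RPKM. The log2 fold changes were -0.28, -0.30 and -0.21, with adjusted p values of 0.596, 0.605 and 0.682 by limma. The ratio of *Col1a1* to *Col1a2*, the chains of the type I trimer, was 1.43 and 1.45 in *Dio3+/+* and *Dio3-/-* hearts.

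Type V chains sit in the core of type I fibrils and set their width. *Col5a1* had means of 42.1 (CV 0.28) and 36.3 RPKM (CV 0.02), and *Col5a2* had 52.6 (CV 0.28) and 50.1 RPKM (CV 0.04). Neither passed, with log2 fold changes of -0.21 and -0.07 and adjusted p values of 0.536 and 0.866 by limma. *Col3a1* and *Col5a2* are neighbouring protein-coding genes in the RefSeq order of chromosome 1. *Col27a1*, a fibrillar chain known from cartilage, had means of 3.40 (CV 0.55) and 2.80 RPKM (CV 0.09).

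*Col2a1* and *Col11a1*, the main chains of cartilage fibrils, which valve mesenchyme also makes, had log2 fold changes of -0.87 and -0.81, the most negative on the log2(RPKM + 0.5) scale. As plain ratios of the means they were -0.91 and -0.88 on the log2 scale, behind *Col25a1* at -1.09. *Col2a1* went from 15.7 RPKM (CV 0.52) to 8.40 RPKM (CV 0.09), a difference of -7.33 RPKM against a *Dio3+/+* SD of 8.18 RPKM. Its log2 fold change was -0.87 (95% confidence interval -1.53 to -0.20), with an unadjusted p of 0.0157 in limma's fit and an adjusted p of 0.151. That interval pools the variances of both genotypes, whose CVs were unequal here. By Welch's test on the summaries, which does not pool them, its adjusted p was 0.409. *Col11a1* went from 8.10 RPKM (CV 0.81) to 4.40 RPKM (CV 0.01), with a log2 fold change of -0.81 (95% confidence interval -1.80 to 0.17) and an adjusted p of 0.364 by limma. Neither difference was larger than the spread among *Dio3+/+* hearts.

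The fibril-associated collagens, which link fibrils to each other and to their surroundings, gave 6 tested genes, all with lower means in *Dio3-/-* hearts and none past the test. The type IX chains, which coat type II fibrils, had *Dio3+/+* CVs of 0.54, 0.78 and 0.82: *Col9a1* had means of 6.33 and 5.29 RPKM, *Col9a2* of 7.45 and 5.11 RPKM, and *Col9a3* of 4.98 and 3.17 RPKM. The *Dio3-/-* CVs of these chains were 0.08, 0.08 and 0.12. *Col12a1* and *Col14a1*, both bound to type I fibrils, had means of 8.69 and 5.78 RPKM and of 6.26 and 5.80 RPKM. *Col16a1* had 11.2 (CV 0.30) and 8.92 RPKM (CV 0.14). The adjusted p values of the 6 genes lay between 0.409 and 0.861 by limma.

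Type VI chains form beaded filaments around cells. *Col6a1* had means of 31.7 (CV 0.49) and 23.9 RPKM (CV 0.03), *Col6a2* of 36.3 (CV 0.47) and 26.3 RPKM (CV 0.06), and *Col6a3* of 7.83 (CV 0.67) and 5.35 RPKM (CV 0.06). These are the chains of the common type VI trimer, and *Col6a1* and *Col6a2* are neighbours on chromosome 10. The ratio of *Col6a1* to *Col6a2* was 0.87 in *Dio3+/+* and 0.91 in *Dio3-/-* hearts. *Col6a6*, a later-described chain, had low CVs in both genotypes, 0.08 and 0.11, with means of 2.03 and 1.91 RPKM. None of the 4 passed, with adjusted p values between 0.410 and 0.737 by limma.

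Among the remaining tested genes, *Col23a1*, a transmembrane collagen, stood out by a narrow spread with a lower mean: 8.55 RPKM (CV 0.11) and 7.25 RPKM (CV 0.04). Its log2 fold change was -0.22, with an unadjusted p of 0.0161 in limma's fit and an adjusted p of 0.152, or 0.318 by Welch's test on the summaries. It was the 1 gene with a lower mean whose difference, -1.30 RPKM, exceeded the *Dio3+/+* SD of 0.94 RPKM. *Col25a1*, a transmembrane collagen of muscle and neurons, had means of 1.96 (CV 0.94) and 0.92 RPKM (CV 0.15). *Col8a2*, a short-chain collagen of vessel walls and the eye, had 4.44 (CV 1.06) and 2.40 RPKM (CV 0.15), and its partner *Col8a1* had 1.03 (CV 0.20) and 1.01 RPKM (CV 0.02). The log2 fold changes of *Col25a1*, *Col8a2* and *Col8a1* were -0.79, -0.77 and -0.02, and none passed.

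The 13 genes under the filter were *Col4a3*, *Col4a4*, *Col5a3*, *Col6a4*, *Col7a1*, *Col10a1*, *Col11a2*, *Col17a1*, *Col19a1*, *Col20a1*, *Col22a1*, *Col24a1* and *Col28a1*. Their means lay between 0 and 0.96 RPKM, and 10 were listed lower, 1 equal and 2 higher in *Dio3-/-* hearts. The 2 listed higher were *Col4a3* and *Col4a4*. *Col10a1*, the marker of hypertrophic cartilage, was at 0.13 RPKM in both genotypes. *Col6a4* was listed at 0 in *Dio3-/-* hearts and at 0.01 RPKM in *Dio3+/+* hearts.

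Summed over all 42 genes, the mean level was 1095 RPKM for the *Dio3+/+* and 1014 RPKM for the *Dio3-/-* genotype. The fibrillar class held 681 and 569 RPKM of this, or 62.2% and 56.2%. Beaded filament chains summed to 77.9 and 57.5 RPKM, multiplexins to 76.7 and 82.7 RPKM, and fibril-associated chains to 45.8 and 34.5 RPKM. In these sums of means, which carry no error, type IV chains took 17.5% in *Dio3+/+* and 24.9% in *Dio3-/-* hearts. The sum of all other chains went from 904 to 762 RPKM, and no tested chain outside type IV passed the test.

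**Figure D3:**
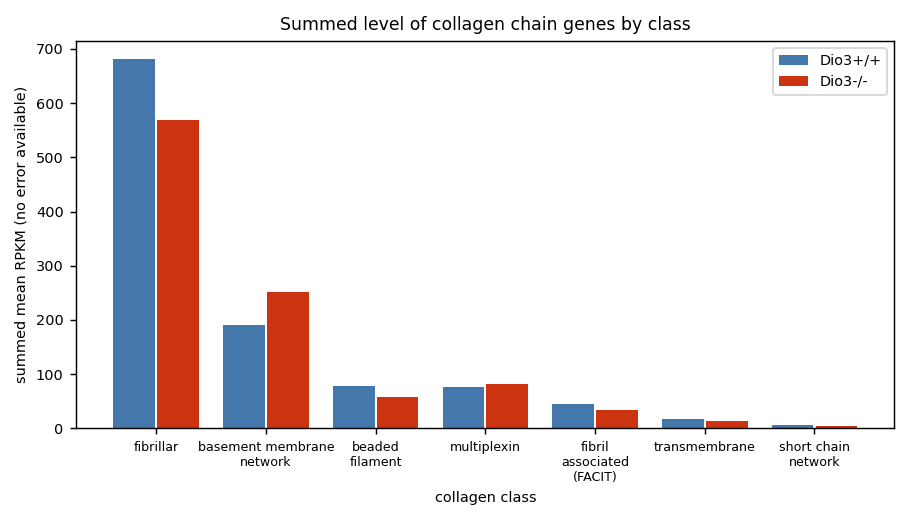
Summed mean RPKM of the collagen chain genes of each class in Dio3+/+ and Dio3-/- hearts, for classes above 0.3% of the Dio3+/+ total. The basement membrane network is the class whose summed level differs most upwards, from 191 to 252 RPKM, and the fibrillar class goes from 681 to 569 RPKM; no error is available for a sum.

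Most collagen genes had a larger CV over the *Dio3+/+* than over the *Dio3-/-* hearts, and this difference in spread was not tested. All genes were measured in the same hearts and can vary together, so the counts of genes below are not independent. Whether a single *Dio3+/+* heart gave the wide spread cannot be seen, since the table holds no values of single hearts. Over the 29 tested genes the median CV was 0.42 in *Dio3+/+* and 0.06 in *Dio3-/-* hearts, against 0.09 and 0.06 over all genes tested. The *Dio3+/+* CV was the larger one in 27 of the 29 genes (93.1%), against 65.4% of all genes tested, the exceptions being *Col6a6* and *Col13a1*. A *Dio3+/+* CV above 0.3 was found in 17 of the 29 (58.6%), against 6.30% of all genes tested. None of the 29 had a *Dio3-/-* CV above 0.3. All 17 genes with the wide spread had lower means in *Dio3-/-* hearts, with a median log2 fold change of -0.46, and in all 17 the difference of the means was smaller than the *Dio3+/+* SD. Of the 12 other genes, 6 were lower and 6 higher, with a median of -0.0047. Among all genes tested with a *Dio3+/+* CV above 0.3, 85.2% were lower, against 32.8% of the rest, and the median log2 fold change over all genes tested was 0.04.

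Across the 29 collagen genes, the *Dio3+/+* CV and the log2 fold change were related with a Spearman's rho of -0.89, and across all 14657 genes tested with a rho of -0.29. This is a description across genes of the same 8 hearts. The genes share their libraries, and the mean of the *Dio3+/+* hearts enters both measures.

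**Figure D4:**
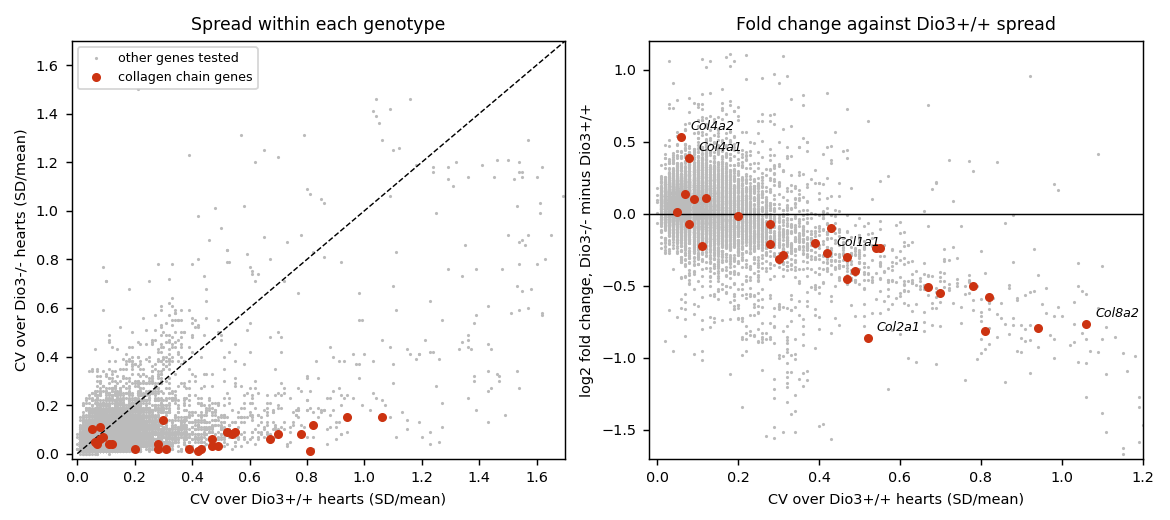
Left, the CV over 4 Dio3-/- hearts against the CV over 4 Dio3+/+ hearts; right, the log2 fold change against the Dio3+/+ CV. Red points are the 29 collagen chain genes and grey points all genes tested, with axes limited to the range of the collagen genes and their surroundings. Most collagen points lie far below the line of equal CV, and the genes with larger Dio3+/+ CVs have more negative fold changes.

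Markers of other tissues that could lie near the heart also had wide spreads over the *Dio3+/+* hearts. Without values of single hearts, whether they and the collagen genes were high in the same hearts cannot be seen, and their part in the collagen values was not tested. Over all genes tested, 1.91% passed as higher and 0.382% as lower. The marker lists here and below are too short for a share to be set beside these. Of 7 bone genes, 4 were above the filter, and the summed level of the list was 17.5 RPKM for *Dio3+/+* and 2.30 RPKM for *Dio3-/-*. *Ibsp*, a protein of mineralizing bone, had 11.3 RPKM with a CV of 1.54 and fell to 0.03 RPKM (adjusted p = 0.0330 by limma), a CV at which the log-scale error is least reliable. *Runx2*, *Sp7* and *Alpl* had 1.72 (CV 1.43), 1.07 (CV 1.53) and 2.72 RPKM (CV 0.86) in *Dio3+/+* hearts. Their *Dio3-/-* means were 0.23, 0.15 and 0.93 RPKM, and none of these passed. Under the filter, *Bglap*, the osteocalcin gene, was at 0.07 and 0.10 RPKM, *Bglap2* at 0.05 and 0.10 RPKM, and *Spp1* at 0.65 and 0.76 RPKM. The 5 skeletal muscle genes summed to 29.7 and 2.47 RPKM, with *Dio3+/+* CVs between 1.54 and 1.62, where 2 is the largest CV that 4 hearts allow and is reached when a single heart holds the whole signal. None of the 3 above the filter passed. The 8 cartilage genes summed to 64.6 and 57.6 RPKM, and 1 of the 5 above the filter passed as higher: *Hapln1*, a hyaluronan link protein that heart muscle and cushions also make, at 23.5 and 29.1 RPKM (adjusted p = 0.0392 by limma). The other 4 had lower means and did not pass: *Matn4*, a cartilage matrix protein, had 5.95 (CV 1.27) and 1.86 RPKM (CV 0.11), *Lect1*, the chondromodulin gene, 1.37 (CV 0.90) and 0.53 RPKM (CV 0.13), and *Comp*, another matrix protein, 1.45 (CV 0.11) and 1.05 RPKM (CV 0.17). *Sox9*, the cartilage and valve transcription factor, had 31.3 (CV 0.46) and 24.2 RPKM (CV 0.07), while *Matn1* and *Matn3*, markers of mature cartilage, were at 0.08 RPKM or less in both genotypes.

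Markers of the heart's own collagen-producing cells were divided. Among 6 fibroblast and valve mesenchyme genes, which summed to 316 and 301 RPKM, none passed. *Pdgfra*, *Lum* and *Twist1* had *Dio3+/+* CVs of 0.55, 0.55 and 0.51, close to those of the type I and type VI chains, and *Postn*, *Tcf21* and *Dcn* had CVs of 0.17, 0.13 and 0.09. The 6 endothelial and endocardial genes, markers of cells that make type IV collagen, had *Dio3+/+* CVs between 0.06 and 0.10. They summed to 241 and 258 RPKM, and none passed. All 6 had higher means, as did 9273 of all 14657 genes tested. The 5 epicardial genes summed to 87.5 and 92.2 RPKM, and none passed. The 5 smooth muscle and pericyte genes summed to 568 and 689 RPKM, and none of the 4 above the filter passed. Of 5 cardiomyocyte genes, summed at 3159 and 3365 RPKM, 1 passed as higher, the calcium release channel gene *Ryr2* at 24.2 and 36.6 RPKM (adjusted p = 0.0231 by limma). The 3 macrophage genes summed to 13.9 and 12.9 RPKM and none passed. Beside these counts, 1.91% of all genes tested passed as higher and 0.382% as lower, so none passing in so short a list says little about a cell type. No gene of any of these lists was listed at 0 in either genotype.

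Liver and red cell genes also differed in level, in opposite directions. The 8 liver genes summed to 23.5 RPKM for *Dio3+/+* and 123 RPKM for *Dio3-/-*, with *Dio3-/-* CVs between 0.68 and 1.26, and none passed. The 4 red cell genes summed to 36843 and 12569 RPKM, and 1 passed as lower, the embryonic globin gene *Hbb-bh1* at 318 and 111 RPKM (adjusted p = 0.0468 by limma). Over all genes tested, 0.382% passed as lower. The part of the liver and red cell genes in the collagen values was not tested.

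**Figure D5:**
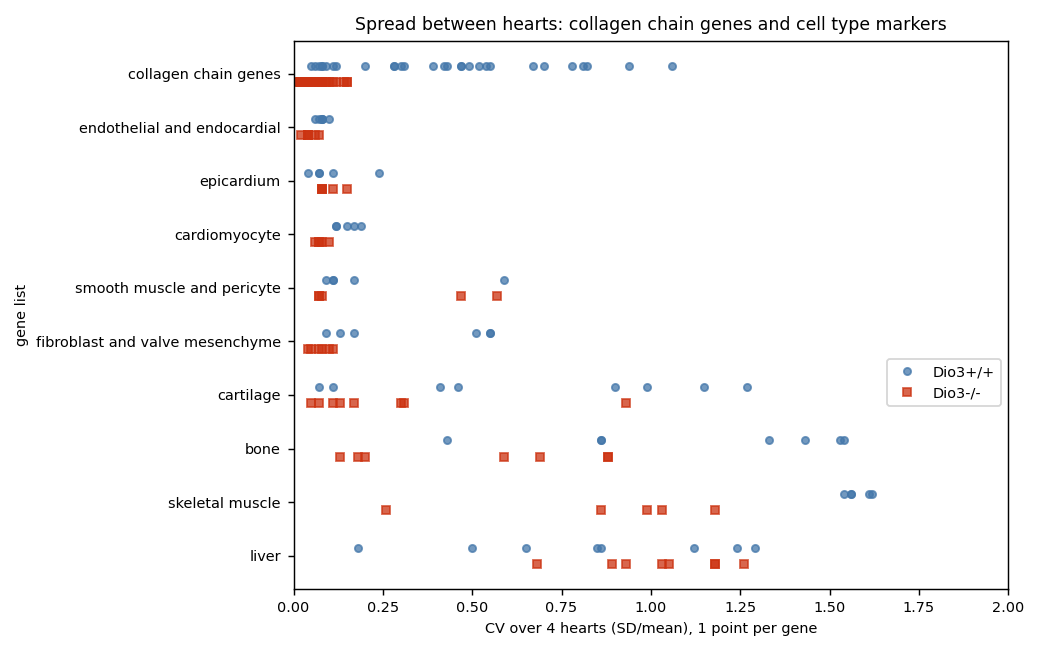
CV over 4 hearts of each collagen chain gene tested and of each gene of 9 cell type marker lists, in Dio3+/+ (circles) and Dio3-/- hearts (squares). The Dio3+/+ CVs of the collagen genes range from 0.05 to 1.06; endothelial markers stay at 0.10 or less and skeletal muscle markers lie between 1.54 and 1.62.

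Genes that make, cross-link, bind or break down collagen passed as higher about as often as all genes tested did. Of 57 such genes, 50 were above the filter. Of these, 1 rose (2%) and none fell, against 1.91% and 0.382% of all genes tested. At an unadjusted p under 0.05 in limma's fit the counts were 4 and 1 of 50, beside 2229 and 654 of all 14657 genes tested. The median log2 fold change of the 50 was 0.01 and their median *Dio3+/+* CV was 0.12, against 0.42 for the collagen chains. The gene that rose was *Loxl1*, a lysyl oxidase best known for cross-linking elastin, from 27.4 RPKM (CV 0.04) to 32.5 RPKM (CV 0.04), with a log2 fold change of 0.24 (SE 0.05) and an adjusted p of 0.0405 by limma. That call did not hold by Welch's test on the summaries, without the variance trend, with centred ratios or with the CVs raised by their rounding error, where the adjusted p lay between 0.0634 and 0.102. The study's own list, made with Welch's test and described with the limits given above, holds *Loxl1*.

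The most abundant genes of this group had almost level means. *Sparc*, a collagen-binding protein, had 452 (CV 0.03) and 435 RPKM (CV 0.04). *Serpinh1*, the chaperone HSP47 that binds only collagens, had 372 (CV 0.10) and 375 RPKM (CV 0.06), with a log2 fold change of 0.01 (95% confidence interval upper bound 0.19). None of the chaperone and export genes passed, nor did any of the prolyl and lysyl hydroxylase genes. A few genes shared the wide *Dio3+/+* spread of the fibrillar chains: *Lox*, the main collagen cross-linking enzyme, had 30.3 (CV 0.52) and 27.5 RPKM (CV 0.04). *Lum*, a small proteoglycan on fibrils, had 40.7 (CV 0.55) and 31.9 RPKM (CV 0.05). The collagen receptors *Ddr2* and *Itga11* had *Dio3+/+* CVs of 0.92 and 0.79, with means of 6.63 and 3.67 RPKM and of 1.51 and 0.92 RPKM. *Pxdn*, the peroxidase that forms the sulfilimine bonds of type IV collagen, had 72.7 (CV 0.09) and 85.6 RPKM (CV 0.02) and did not pass (adjusted p = 0.0853 by limma).

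The proteins that share the basement membrane with type IV collagen gave 10 tested genes of 11, of which 2 rose and none fell, against 1.91% and 0.382% of all genes tested. At an unadjusted p under 0.05 in limma's fit the counts were 5 and 0 of 10, beside 2229 and 654 of all 14657 genes tested. *Lama2*, the laminin chain of the muscle basement membrane, went from 6.49 RPKM (CV 0.04) to 12.6 RPKM (CV 0.09), with a log2 fold change of 0.91 (SE 0.07) and an adjusted p of 0.00029 by limma. *Lamb2*, its beta chain partner in mature muscle, went from 17.6 RPKM (CV 0.02) to 23.5 RPKM (CV 0.05), with a log2 fold change of 0.41 (SE 0.05) and an adjusted p of 0.00424 by limma. By Welch's test on the summaries neither passed, at adjusted p values of 0.0600 and 0.0784. Both are among the differentially expressed genes that the study lists by its own Welch's test, with the limits given above. The most abundant members did not pass: *Lamc1* had 81.0 and 99.2 RPKM (adjusted p = 0.0581 by limma, and from 0.0429 to 0.204 under the other settings, of which 2 of 10 passed) and *Lamb1* had 70.3 and 71.2 RPKM (adjusted p = 0.878 by limma). The perlecan gene *Hspg2* had 39.9 and 50.4 RPKM (adjusted p = 0.0733 by limma), while the nidogens *Nid1* and *Nid2*, which bridge laminin and type IV collagen, had 56.0 and 54.3 RPKM and 60.0 and 60.0 RPKM. The median log2 fold change of the 10 was 0.12, beside 0.25 for the 4 tested type IV genes and 0.04 for all genes tested, and their *Dio3+/+* CVs did not exceed 0.10.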

How the data were processed

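Total RNA from 8 fetal hearts, 4 per genotype, was depleted of ribosomal RNA, copied from random primers and sequenced; the authors aligned the reads with Novoalign (version 2.08, after FastQC, per the labels' processing notes), kept reads that map once and scaled all samples linearly to the smallest read total. The build is not given in the sources used here. The deposited table holds the genotype mean of each transcript, read as RPKM because the methods filter on that unit, and the CV, a deposited ratio (SD over mean), both rounded. It also holds the authors' fold change, q value and flags, which were not used. The depth per sample is unknown from these values, and random scatter of low values cannot be given an interval. There were 0 columns of unmapped samples.

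The test planned for values of single hearts was computed from the summaries, since the table gives no others. For each row, log2(mean + 0.5) was taken per genotype, with its SD approximated as the RPKM SD divided by (mean + 0.5) and by the natural log of 2. Pooled variances (6 degrees of freedom) were moderated with limma 3.58.1 in R 4.3.3, with a mean-variance trend (3.52 prior degrees of freedom). P values, all two-sided, received Benjamini-Hochberg adjustment across all 32703 rows that exceeded 1 RPKM in a genotype, and 0.05 was the threshold. A fold change on this scale understates the change of low genes, and the approximation is least reliable at large CVs. The procedure was tested on simulated data with equal spread in both genotypes, which does not cover the unequal spread of many collagen genes. P values measure the spread between individual fetuses; litters are not given. Counts per gene use the row with the highest mean. The members, classes, gene lists and markers were chosen with earlier results of these data known. Every tested collagen gene was described by its values; of the other lists, genes past the threshold, the 2 with the highest means and genes with a CV above 0.5 that bear on a chain were named, and further markers and partners were named after their values were seen. Alternatives were another pseudocount, filter, variance model, test, centring, row choice and CV rounding. Python 3.11.15 (pandas 2.3.3, scipy 1.17.1) was used for summaries.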

Additional observations from a re-analysis of the deposited data

How the results depend on the processing

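Of 274 collagen log2 fold changes tested under other settings, 272 kept their direction and their side of the threshold, and the 29 plain ratios of the means, which carry no test, kept their direction. Most of the 274 belong to genes that did not pass in the main fit, and most settings leave the fold change itself unchanged. That count therefore says little about the genes that passed, which are given next. *Col4a2* passed under all 10 settings that give a test, with adjusted p values by limma or Welch's test from 0.0012 to 0.0465, and *Col4a1* under 9 of 10, from 0.0146 to 0.129. By Welch's test, 1 collagen gene was higher in place of 2, 0 of the biosynthesis and turnover genes in place of 1, and 0 of the basement membrane partners in place of 2. The partners counted 3, with *Lamc1* added, above 5 RPKM and with rows of CV above 0.5 left out. The biosynthesis count was also 0 without the variance trend, with ratios centred on their median, and with the CV raised by 0.005. *Col13a1* turned to a log2 fold change of -0.028 when centred. No count of lower genes at an adjusted p under 0.05 moved under any setting. At an unadjusted p under 0.05, 2 collagen genes were lower in limma's main fit and 0 by Welch's test. Leaving out each heart was not run, since the table holds no values of single hearts, nor were the counts repeated without the hearts of the doubtful age. No paired analysis was possible because the table holds genotype summaries and no values per replicate. The study's methods give a range of aligned reads but not the depth of each sample. Genes under 1 RPKM were given as listed values only.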

Other observations

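*Emid2*, an older symbol of a further collagen gene, is not matched by the naming rule and was not counted. Its mean was 21.1 RPKM with a CV of 0.81 over the *Dio3+/+* hearts and 10.8 RPKM with a CV of 0.19 over the *Dio3-/-* hearts, a difference smaller than the *Dio3+/+* SD. Of the 21 collagen genes with several tested rows, 20 had all rows on the same side of 0, and the exception, *Col13a1*, had 1 row with equal means. Of the 64 tested collagen rows, 50 had lower means in *Dio3-/-* hearts and 3 passed the test, those of *Col4a1* and *Col4a2*.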
